A study of Homo sapiens with 14 samples.

Results

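Androgen response genes outside the kallikrein family were followed through CTCF RNAi in LNCaP, an established line of androgen-responsive human prostate cancer cells. The genes were taken from a list of 52 symbols, made up of genes that androgens are known to induce in prostate cells and genes commonly read as part of that response. The list was chosen with earlier results of these data known. They were found by symbol in the platform annotation, and each gene is given by its brightest named probe set, judged by the mean of the 14 arrays. A named probe set was found for 27 of the 52, among 16098 named probe sets with 14884 symbols. The other 25, for which no named probe set was found and which are not analysed here, were TMPRSS2, ABCC4, ACSL3, ADAMTS1, ALDH1A3, ANKH, AZGP1, BMPR1B, CAMKK2, DBI, DNAJB9, ELL2, GUCY1A1, INPP4B, ITGAV, LMAN1, MYL12A, NCAPD3, PIAS1, PMEPA1, RAB4A, SORD, SPOCK1, TSC22D1 and ZMIZ1. PPAP2A was measured under its current symbol, PLPP1. By role, the 27 measured genes fell into 6 of 11 listed signalling genes, 2 of 6 in transcription, 7 of 9 in protein folding, the secretory pathway and protein turnover, 4 of 12 in cell surface, secreted, transport and trafficking functions, 5 of 9 in lipid, sugar and redox metabolism, and 3 of 5 in the cytoskeleton and chromosome.

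The 14 arrays fell into 7 groups of 2. Cells that had received a 20 nM pool of CTCF siRNAs (small interfering RNAs, which degrade the matching mRNA), and cells given non-targeting control siRNAs at the same dose, were sampled at 24, 72 and 144 h, and untransfected LNCaP cells formed the seventh group. Cells of both siRNAs were replated at 72 h and given a second transfection to reach 144 h, so these cells differ from the 72 h cells in the number of transfections as well as in time. The untransfected arrays carry no time label, and the same 2 arrays served as the comparison at every time. Their description codes begin with 72, but whether this is a time is not stated. The labels and methods name no androgen treatment and no androgen withdrawal, so the list is a set of named genes here and not a measure of androgen exposure.

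Androgens such as dihydrotestosterone act on gene expression through androgen response elements in DNA, which lie mostly in enhancers. The response needs pioneer factors such as FOXA1 and coactivators. The classical output in luminal prostate cells includes the kallikreins, but also kinases, chaperones, lipid-synthesis enzymes and secretory proteins. Several of these genes, FKBP5, SGK1 and MAF among them, are also known targets of the glucocorticoid receptor, which recognises closely related DNA. CTCF, the protein depleted here, binds insulators and the borders of chromatin domains through its zinc fingers.

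Promoter sequences were available for 20 of the 27 measured genes, from RefSeq on build GRCh38.p14, each running from 250 bases before to 50 bases after the annotated start. The first window listed for each gene was used, and its start need not be the one used in these cells. The windows of 4 genes that were higher after CTCF siRNA at 144 h are shown so that the letters at their starts can be read beside the values. All 4 lie on the minus strand and are written 5' to 3' along the gene: SGK1 at chr6:134318063-134318362, MAF at chr16:79600688-79600987, ELOVL5 at chr6:53348901-53349200 and FKBP5 at chr6:35728534-35728833. Capitals mark AGAACA, a half-site of the androgen response element (FKBP5), and TGACGTCA, the cyclic AMP response element (MAF and ELOVL5).
SGK1: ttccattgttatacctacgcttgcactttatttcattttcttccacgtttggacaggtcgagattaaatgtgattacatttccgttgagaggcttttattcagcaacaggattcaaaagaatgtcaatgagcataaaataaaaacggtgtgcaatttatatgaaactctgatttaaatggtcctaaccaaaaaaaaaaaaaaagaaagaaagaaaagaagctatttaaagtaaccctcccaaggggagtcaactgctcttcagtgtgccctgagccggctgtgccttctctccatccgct
MAF: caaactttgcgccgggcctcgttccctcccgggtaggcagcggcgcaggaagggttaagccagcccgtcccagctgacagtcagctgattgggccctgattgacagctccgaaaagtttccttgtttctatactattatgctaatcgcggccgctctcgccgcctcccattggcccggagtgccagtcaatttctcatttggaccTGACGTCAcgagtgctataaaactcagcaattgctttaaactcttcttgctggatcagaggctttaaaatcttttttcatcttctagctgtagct
ELOVL5: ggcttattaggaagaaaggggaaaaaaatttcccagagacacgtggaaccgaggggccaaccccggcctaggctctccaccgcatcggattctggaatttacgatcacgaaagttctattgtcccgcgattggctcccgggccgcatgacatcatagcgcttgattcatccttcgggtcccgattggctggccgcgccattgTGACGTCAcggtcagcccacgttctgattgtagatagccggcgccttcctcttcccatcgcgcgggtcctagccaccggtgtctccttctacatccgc
FKBP5: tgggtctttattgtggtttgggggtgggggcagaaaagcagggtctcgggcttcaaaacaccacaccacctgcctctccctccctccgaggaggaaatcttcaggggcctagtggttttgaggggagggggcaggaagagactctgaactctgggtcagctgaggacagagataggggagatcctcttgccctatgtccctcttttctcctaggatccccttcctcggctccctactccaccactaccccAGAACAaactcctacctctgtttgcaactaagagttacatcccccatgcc
On either strand, AGAACA was found in 2 of the 20 promoters (FKBP5 and STK39), and in 14.8% of all 35116 promoters in the RefSeq table. The full element, AGAACA and TGTTCT with 3 bases between them, was in none of the 20 and in 0.00285% of all. A core of the CTCF motif, CCA, AG and GGC in this order with 2 bases in each gap, was in 1 of the 20 (UAP1) and in 2.41% of all. TGACGTCA, which was searched only after the sequences had been read, was in 2 of the 20 (MAF and ELOVL5) and in 1.85% of all. No motif overlaps another in the 4 windows shown. A match of letters is a description of the window and no evidence of binding.

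CTCF itself was measured first, as a check of the labels. It had log2 values of 6.73 and 7.25 in CTCF siRNA cells at 24 h, against 9.001 and 9.11 in control siRNA cells. At 72 h the CTCF siRNA arrays gave 7.46 and 7.09, against 8.98 and 9.02 in control siRNA cells, and at 144 h they gave 6.84 and 6.94, against 9.19 and 9.07. All 6 CTCF siRNA arrays were below all 6 control siRNA arrays and below the untransfected arrays (8.85 and 8.78), and CTCF fell by 2.07, 1.72 and 2.24 on the log2 scale at 24, 72 and 144 h (limma adjusted p = 0.00573, 0.00618 and 0.000137; n = 2 arrays per group). The luminal prostate markers, 7 of 11 measured, averaged 7.75 to 7.80 in CTCF siRNA cells at 144 h and 7.92 to 8.26 over all other arrays, whereas the basal, fibroblast, immune and neuroendocrine lists averaged 3.07 to 4.27. The glucocorticoid receptor (NR3C1), CDH1 and ACP3 were not analysed here. FOXA1, the pioneer factor, had 8.98 and 8.98 in CTCF siRNA cells at 144 h, against 9.12 and 9.06 in control siRNA cells. KLK3, which encodes prostate-specific antigen, had 8.05 and 8.58, against 8.32 and 8.59. For neither did the 144 h comparison pass the test (adjusted p = 0.701 and 0.766), and the 2 KLK3 ranges overlap.

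The measured genes spanned nearly the whole range of array levels, so a change in log2 value does not rest on equal signal in each. PLPP1, STK39 and XRCC5 had means above 10.5 and lay at the 99.8, 99.8 and 99.7 percentile of all named probe sets. ORM1 and STEAP4 had means of 2.44 and 2.73, at the 13.6 and 17.6 percentile. SGK1 (32.2 percentile), EAF2 (42.3) and MAF (43.6) were also on the dim side. How far the values of these 5 lie above background is not known, so their differences are differences of array values. In contrast, ELOVL5 (97.9) and HERC3 (95.4) were among the brightest. ORM1 shares most of its sequence with its paralog ORM2, and TARP is transcribed from the T cell receptor gamma locus, so the values of both may include other transcripts.

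**Figure D1:**
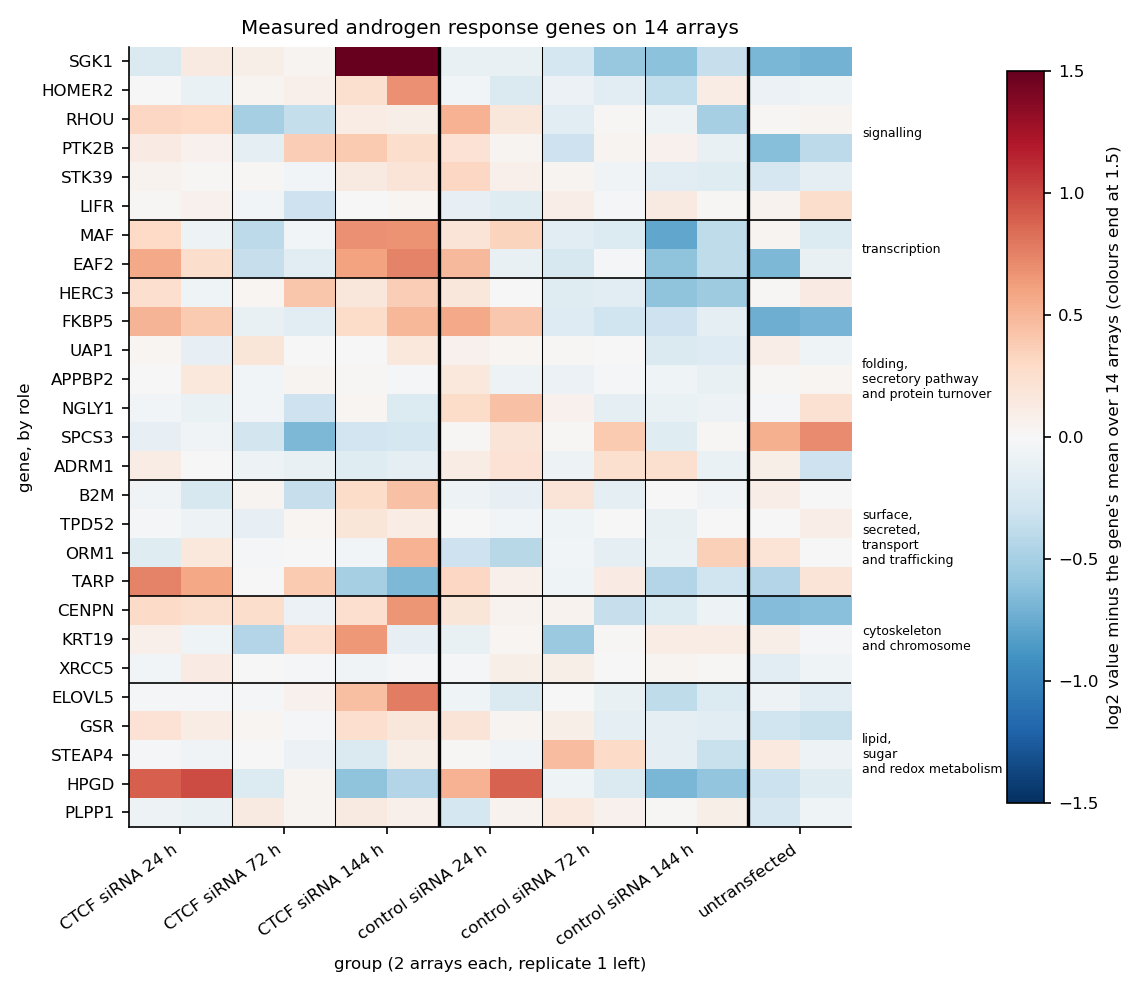
Log2 value of each of the 27 measured genes minus that gene's mean over the 14 arrays (colour), with genes in rows by role and arrays in columns by group, replicate 1 on the left of each pair. The 2 CTCF siRNA arrays at 144 h are the reddest for SGK1, whose values there (5.32 and 5.36) lie beyond the end of the colour scale.

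The central question for these genes was whether their levels differed between CTCF siRNA and control siRNA cells. At 144 h, 6 of the 27 were higher after CTCF siRNA and none was lower (22.2% called, where 3.76% of all 16098 named probe sets were called, 2.37% of them higher and 1.4% lower; limma adjusted p below 0.05). They were SGK1, MAF, EAF2, ELOVL5, HERC3 and FKBP5. The median difference over the 27 was 0.29 on the log2 scale, beside 0.00 over all named probe sets, and 22 of the 27 differences were positive, where 50.5% of all were. In 16 of the 27 both CTCF siRNA arrays lay above both control siRNA arrays (24.8% of all probe sets did), in 4 they lay below (22.2%), and in 7 the groups overlapped. An unadjusted p below 0.05 was reached by 13 of the 27 and by 16.4% of all. Some of the 27 share regulators, so they are not independent of each other. The list was also chosen with earlier results of these data known, so its shares describe these genes and do not test the list.

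SGK1, a serine/threonine kinase that regulates ion transport and cell survival, differed most. It had 5.32 and 5.36 in CTCF siRNA cells at 144 h, against 3.04 and 3.30 in control siRNA cells. Both CTCF siRNA arrays at 144 h stood above every other array of the series, which reached 3.78 at most. SGK1 rose by 2.17 ± 0.15 on the log2 scale (SE, n = 2 arrays per group, adjusted p = 9.6e-05).

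Both measured transcription genes rose. MAF, a basic leucine zipper transcription factor, had 5.01 and 5.00 in CTCF siRNA cells at 144 h, against 3.55 and 3.94 in control siRNA cells, and these 2 CTCF siRNA arrays again stood above the other 12. Its difference was 1.26 ± 0.17 (SE, n = 2), or 2.39-fold, with an adjusted p of 0.0034. EAF2, a partner of the ELL elongation factors, had 4.85 and 5.00, against 3.65 and 3.88, a difference of 1.16 ± 0.20 (SE, n = 2), or 2.23-fold (adjusted p = 0.0105). The groups did not overlap for either gene, although EAF2 had reached 4.82 in CTCF siRNA cells and 4.74 in control siRNA cells at 24 h, close to its 144 h values.

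Among the genes of lipid, sugar and redox metabolism, 1 of 5 rose. ELOVL5, which elongates polyunsaturated fatty acids, had 9.65 and 9.97 in CTCF siRNA cells, against 8.82 and 9.002 in control siRNA cells. The 2 CTCF siRNA arrays were the highest of the 14, and the difference was 0.89 ± 0.13 (SE, n = 2), or 1.86-fold (adjusted p = 0.00517). The other 4 were GSR (glutathione reductase), STEAP4 (a metalloreductase), HPGD (which inactivates prostaglandins) and PLPP1 (a lipid phosphatase), with differences between 0.05 and 0.36 that did not pass. GSR came nearest, with 9.97 and 9.89 against 9.59 and 9.56 and no overlap (0.36 ± 0.11, adjusted p = 0.107).

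In the folding, secretory and turnover group, 2 of 7 rose. HERC3, a ubiquitin ligase, had 8.71 and 8.90 in CTCF siRNA cells at 144 h, against 7.93 and 8.001 in control siRNA cells (0.84 ± 0.16, SE, n = 2, 1.79-fold, adjusted p = 0.0191). The CTCF siRNA arrays were within the range of earlier times for this gene, and the 2 control siRNA arrays at 144 h were the lowest of the 14. FKBP5, an immunophilin co-chaperone of steroid receptors, had 5.83 and 6.06, against 5.24 and 5.42 (0.62 ± 0.13, SE, n = 2, 1.53-fold, adjusted p = 0.0283), with no overlap. The other 5 of this group, UAP1 (an enzyme of UDP-N-acetylglucosamine synthesis), APPBP2, NGLY1 (a cytosolic deglycosylating enzyme), SPCS3 (a signal peptidase subunit) and ADRM1 (a proteasome ubiquitin receptor), gave differences from -0.23 to 0.29.

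The remaining groups held differences that did not pass. Of the other 5 signalling genes, HOMER2, a scaffold at glutamate receptors, had 7.86 and 8.31 in CTCF siRNA cells against 7.25 and 7.73 in control siRNA cells (0.59 ± 0.17, adjusted p = 0.105). STK39, a kinase of cation transport, had 11.06 and 11.12 against 10.77 and 10.74 (0.33 ± 0.11, adjusted p = 0.149). Neither pair of groups overlapped, and RHOU, PTK2B and LIFR gave 0.38, 0.35 and -0.07. CENPN, which recruits kinetochore proteins to centromeric nucleosomes, had 8.09 and 8.50 against 7.64 and 7.77 (0.60 ± 0.18, adjusted p = 0.115), and KRT19 and XRCC5 gave 0.15 and -0.07. B2M, the light chain of MHC class I, had 7.20 and 7.36 against 6.94 and 6.87 (0.38 ± 0.14, adjusted p = 0.204), and its second probe set gave 0.33. TPD52, ORM1 and TARP gave 0.20, 0.11 and -0.22.

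**Figure D2:**
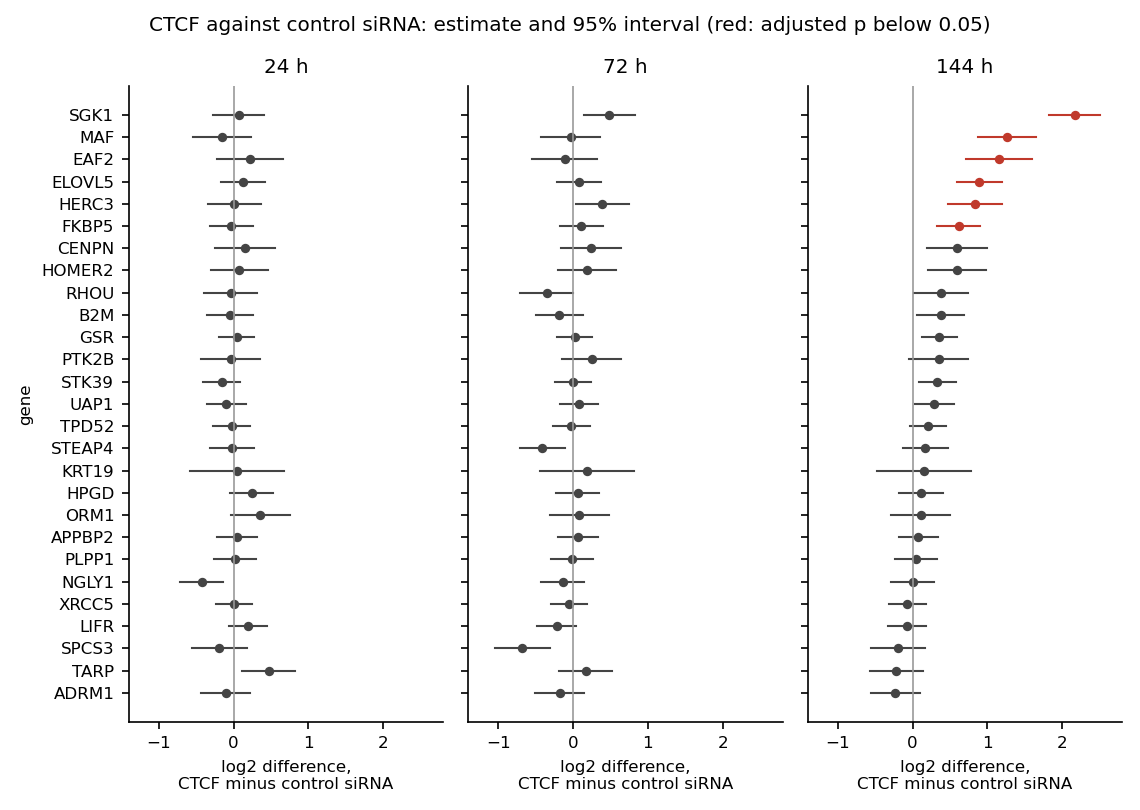
Difference in log2 value, CTCF siRNA minus control siRNA, for each of the 27 measured genes at 24, 72 and 144 h (points, limma estimates; bars, 95% confidence intervals; red, adjusted p below 0.05). Only at 144 h are points red, and these are SGK1 (2.17), MAF (1.26), EAF2 (1.16), ELOVL5 (0.89), HERC3 (0.84) and FKBP5 (0.62).

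With 2 arrays a group, the 144 h calls depended on single arrays, although the differences kept their direction in each of the 12 fits that left out 1 array. The count was 2 without control siRNA replicate 1, 4 without control siRNA replicate 2, 3 without CTCF siRNA replicate 1 and 2 without CTCF siRNA replicate 2 of 144 h, where 1.3%, 1.52%, 1.38% and 1.47% of all probe sets passed, against 3.76% with all arrays. SGK1 and MAF kept their calls in all 12 fits. ELOVL5 no longer passed without control siRNA replicate 1 or CTCF siRNA replicate 2, EAF2 without control siRNA replicate 1 or either CTCF siRNA replicate, and FKBP5 and HERC3 on leaving out any 1 of the 4 arrays of 144 h. Over the 12 fits the differences ranged from 0.73 to 1.05 for ELOVL5, 1.01 to 1.31 for EAF2, 0.74 to 0.94 for HERC3 and 0.48 to 0.76 for FKBP5. Markers moved in the same comparison, and their part in the result was not tested: CD24, a surface marker of luminal cells, fell by 1.71, FOLH1 (prostate-specific membrane antigen) fell by 0.61 (2 of 7 measured luminal markers), and CD68, a lysosomal protein and macrophage marker, rose by 1.17 (1 of 5 measured immune markers, CD14, LYZ, CSF1R and NKG7 not passing). None of the 25 S phase, 26 G2/M, 6 unfolded protein response or 13 integrated stress response genes measured passed the test in either direction, with medians of 0.12, -0.12, -0.03 and -0.02. In bulk RNA, fewer cells that express a gene and less of its RNA per cell cannot be told apart.

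At 72 h none of the 27 passed the test, where 0.186% of all probe sets did, and 4 of the 27 against 8.03% of all had an unadjusted p below 0.05. These 4 were SPCS3, SGK1, STEAP4 and HERC3. SPCS3 had 6.89 and 6.49 in CTCF siRNA cells, against 7.18 and 7.56 in control siRNA cells (-0.68 ± 0.16, SE, n = 2, adjusted p = 0.248), without overlap. The unfolded protein response list had mean log2 levels of 7.13 and 7.35 in CTCF siRNA cells and of 7.34 and 8.21 in control siRNA cells. These ranges overlapped, and the value of 8.21 came from 1 array, control siRNA replicate 2. HYOU1, of this list, had 9.71 on that array and 8.43 on replicate 1, and SPCS3 had 7.56 and 7.18. The part of this list in the SPCS3 values was not tested. SGK1 had 3.74 and 3.69, against 3.38 and 3.08 (0.48 ± 0.15, adjusted p = 0.405), again without overlap. STEAP4, at a dim level, had 2.73 and 2.65, against 3.19 and 3.01 (-0.41 ± 0.13, adjusted p = 0.425), and HERC3 had 8.57 and 8.96, against 8.35 and 8.38 (0.39 ± 0.16, adjusted p = 0.574). MAF, EAF2, ELOVL5 and FKBP5 lay between -0.11 and 0.11. In 5 of the 27 the CTCF siRNA arrays lay above both control siRNA arrays (16% of all), and in 6 below (19% of all).

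At 24 h none of the 27 passed either, where 0.0124% of all probe sets did, and 2 of the 27 against 6.03% of all had an unadjusted p below 0.05. NGLY1 had 6.28 and 6.21 in CTCF siRNA cells, against 6.59 and 6.75 in control siRNA cells (-0.43 ± 0.13, SE, n = 2, adjusted p = 0.693). TARP had 5.74 and 5.57, against 5.30 and 5.07 (0.47 ± 0.16, adjusted p = 0.725). The groups overlapped in neither gene, and the 6 genes that rose at 144 h lay between -0.15 and 0.22 at 24 h. In 6 of the 27 the CTCF siRNA arrays lay above both control siRNA arrays (18.7% of all), and in 5 below (17% of all).

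Whether the CTCF siRNA effect itself differed between times was tested as an interaction. Between 144 and 24 h the effect was larger for SGK1, by 2.10 ± 0.22 on the log2 scale (SE, n = 2 arrays per group, adjusted p = 0.00365), and for MAF, by 1.41 ± 0.25 (adjusted p = 0.0351). These were 2 of the 27 genes, where 0.795% of all probe sets passed (0.435% larger, 0.36% smaller), and 10 of the 27 against 10.8% of all had an unadjusted p below 0.05. The call for SGK1 held in all 12 fits without 1 array, whereas that for MAF held in 3 of the 12, those without CTCF siRNA replicate 1 of 24 h or either CTCF siRNA replicate of 72 h. ELOVL5 (0.77, 95% confidence interval 0.35 to 1.19, adjusted p = 0.127), EAF2 (0.94, 0.31 to 1.56, adjusted p = 0.235), HERC3 (0.83, 0.32 to 1.33, adjusted p = 0.191) and FKBP5 (0.65, 0.24 to 1.05, adjusted p = 0.202) did not pass. Between 144 and 72 h none of the 27 passed, where 0.0186% of all did, and SGK1 came nearest with 1.69 ± 0.22 (adjusted p = 0.0529), while 9 of the 27 against 8.39% of all had an unadjusted p below 0.05. Between 72 and 24 h none of the 27 and no probe set passed, and 1 of the 27 against 5.37% of all had an unadjusted p below 0.05. No call at 144 h is thus shown to be confined to that time. SGK1 and MAF passed between 144 and 24 h but not between 144 and 72 h.

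**Figure D3:**
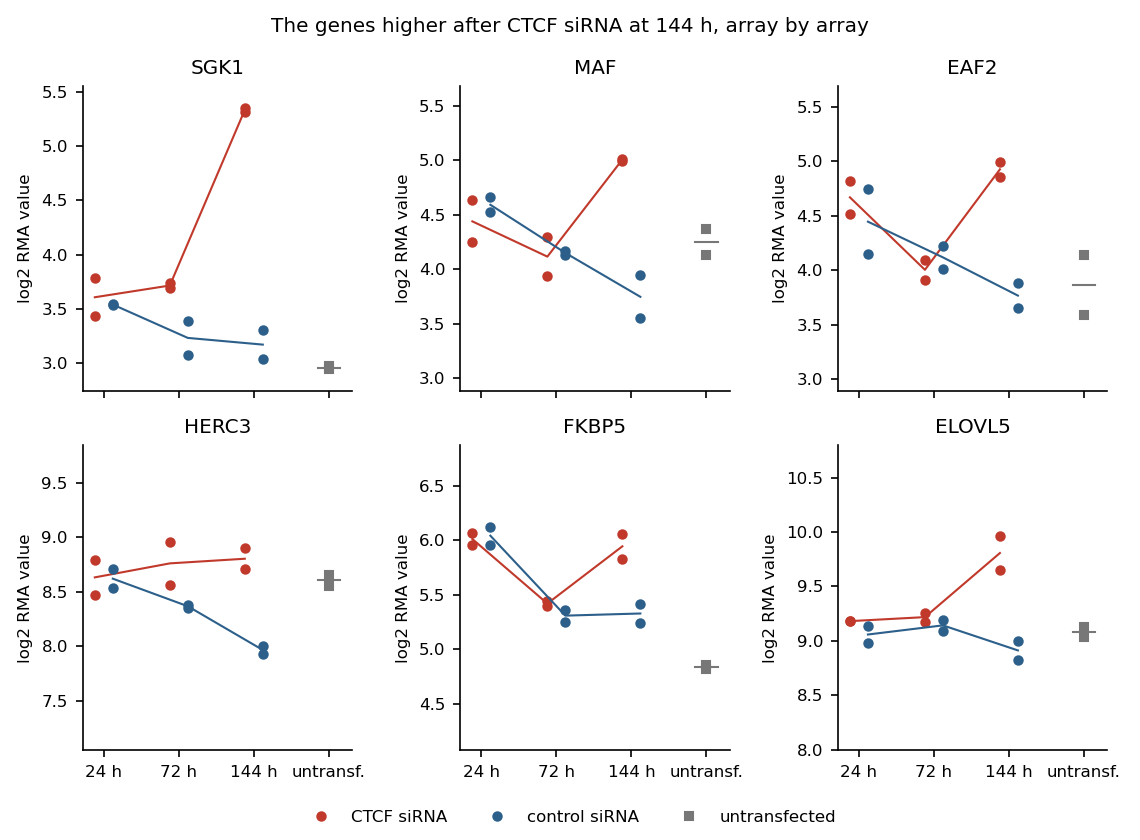
Log2 RMA value on each array (points) and group means (lines) of the 6 genes that were higher after CTCF siRNA at 144 h, over time in CTCF siRNA cells (red) and control siRNA cells (blue), with untransfected cells as squares and a bar at their mean; times are spaced equally. SGK1, MAF and EAF2 separate at 144 h with CTCF siRNA values of 4.85 to 5.36, while for HERC3 the separation comes with control siRNA values of 7.93 and 8.001, the lowest of its 14 arrays.

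The siRNA groups were also set against untransfected cells, which shows where the control siRNA cells stood. At 24 h, 6 of the 27 genes were higher in control siRNA cells than in untransfected cells and none was lower, where 3.99% of all probe sets were higher and 3.58% lower (7.57% in all). They were FKBP5, HPGD, CENPN, GSR, SGK1 and PTK2B. The cell cycle moved in this same comparison: 23 of the 25 measured genes of S phase (median difference 1.39) were higher in control siRNA cells, as were 25 of the 26 of G2/M (1.28). Of the 6 unfolded protein response and 13 integrated stress response genes, 2 and 8 were lower. CD24 and FOLH1, of 7 measured luminal markers, were lower on both control siRNA arrays than on both untransfected arrays. So was VIM, of 4 fibroblast and stromal markers, while CD68, of 5 immune markers, was higher. KLK3, also a luminal marker, was higher (8.15 and 8.20, against 7.86 and 7.57). The part of these differences in the values of the 6 genes was not tested.

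FKBP5 had 6.12 and 5.96 in control siRNA cells at 24 h, against 4.82 and 4.86 in untransfected cells, the largest of these differences (1.20 ± 0.13, SE, n = 2, 2.30-fold, adjusted p = 0.000619). HPGD had 5.54 and 5.90, against 4.70 and 4.83 (0.95 ± 0.13, adjusted p = 0.00168). Later values differed between these genes. FKBP5 had 5.36 and 5.25 at 72 h and 5.24 and 5.42 at 144 h in control siRNA cells, on all arrays above untransfected cells although the tests missed the threshold (adjusted p = 0.147 and 0.0544), whereas HPGD had 4.95 and 4.80 at 72 h, overlapping untransfected cells, and 4.34 and 4.43 at 144 h, below them (adjusted p = 0.816 and 0.141).

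CENPN had 8.02 and 7.89 in control siRNA cells at 24 h, against 7.19 and 7.22 in untransfected cells (0.76 ± 0.17, SE, n = 2, adjusted p = 0.0235). PTK2B, a calcium-responsive tyrosine kinase, had 7.06 and 6.88, against 6.20 and 6.45 (0.65 ± 0.17, adjusted p = 0.0454). SGK1 had 3.54 and 3.54, against 2.97 and 2.94 (0.58 ± 0.15, adjusted p = 0.0361), and GSR had 9.92 and 9.77, against 9.43 and 9.39 (0.44 ± 0.10, adjusted p = 0.0279). Groups overlapped in none of the 6 genes. Of the 6 calls, those for FKBP5 and HPGD held in each of the 14 fits without 1 array, and the count was 2 on leaving out either untransfected array or either control siRNA array of 24 h.

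At 72 h none of the 27 passed between control siRNA and untransfected cells, where 0.478% of all did (5 of the 27 and 11.9% of all at an unadjusted p below 0.05). The control siRNA arrays lay above both untransfected arrays in 9 of the 27 (20.6% of all) and below both in 6 (18.5% of all). At 144 h none was higher and 2 were lower in control siRNA cells, where 2.04% of all were higher and 2.1% lower (4.14% in all). SPCS3 had 6.98 and 7.19, against 7.70 and 7.88 in untransfected cells, and fell by 0.71 on the log2 scale (SE 0.16, n = 2, adjusted p = 0.0327). HERC3 had 7.93 and 8.001, against 8.55 and 8.66, and fell by 0.64 (SE 0.16, adjusted p = 0.0443). Neither gene overlapped between the groups, and neither call held on leaving out either untransfected array or either control siRNA array of 144 h. The HERC3 call was also lost on leaving out any 1 array of control siRNA at 24 or 72 h or of CTCF siRNA at 144 h. All 6 unfolded protein response genes measured were lower in this comparison (median -1.20). The integrated stress response list averaged 7.35 to 7.36 in control siRNA cells, against 8.15 to 8.27 in untransfected cells. The S phase list averaged 7.19 to 7.20, against 6.09 to 6.22, and the G2/M list 7.80 to 7.95, against 6.54 to 6.81. The part of these differences in SPCS3 and HERC3 was not tested.

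**Figure D4:**
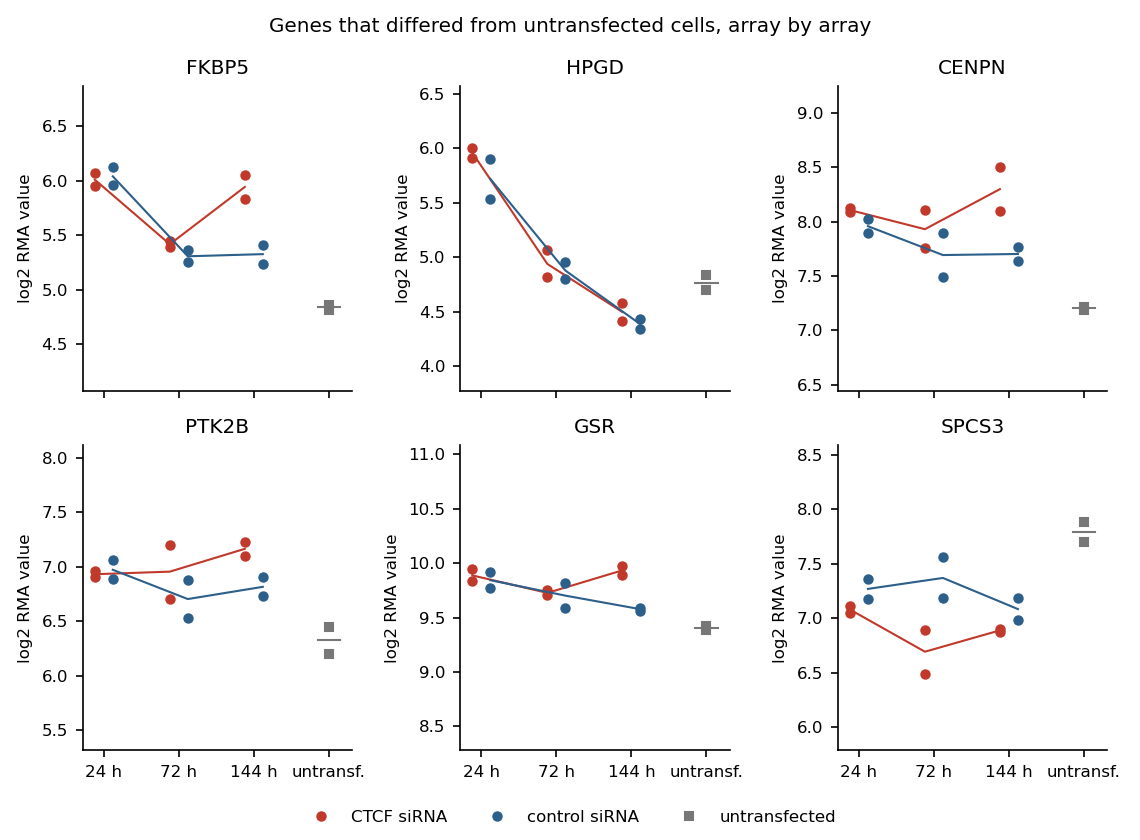
Log2 RMA value on each array (points) and group means (lines) of 6 genes that differed from untransfected cells, over time in CTCF siRNA cells (red) and control siRNA cells (blue), with untransfected cells as squares and a bar at their mean; times are spaced equally. FKBP5, CENPN, PTK2B and GSR lie above untransfected cells on every siRNA array, SPCS3 lies below on every siRNA array, and HPGD lies above at 24 h and below at 144 h.

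CTCF siRNA cells differed from the same untransfected arrays in more of the genes, and since those 2 arrays serve every time and both siRNAs, the comparisons are not independent of each other. At 24 h, 7 of the 27 were higher and 1 was lower (5.42% and 3.83% of all, 9.25% together). The higher genes were FKBP5 (1.17), HPGD (1.19), CENPN (0.90), EAF2 (0.81), TARP (0.79), SGK1 (0.65) and GSR (0.48), and SPCS3 fell by 0.71. SPCS3 had 7.05 and 7.11 in CTCF siRNA cells at 24 h, against 7.70 and 7.88 in untransfected cells. TARP had 5.74 and 5.57, against 4.55 and 5.18. The groups overlapped in neither, but the 2 untransfected arrays of TARP lie further apart than the 2 groups do at their nearest. The count of 8 was 2 and 5 without untransfected replicates 1 and 2, and 3 and 2 without CTCF siRNA replicates 1 and 2 of 24 h. The EAF2 call held in 3 of the 14 fits without 1 array, and that of FKBP5 in all 14. In this comparison 24 of 25 S phase and all 26 G2/M genes were higher, 3 of 6 unfolded protein response and 8 of 13 integrated stress response genes were lower, and their part in the 8 genes was not tested. Nor was that of markers: CD24 and FOLH1, of 7 measured luminal markers, fell by 1.15 and 0.47. VIM, a mesenchymal marker (of 4 fibroblast and stromal markers), fell by 0.52, and CD68, of 5 immune markers, rose by 0.50. The luminal marker KLK3 was higher, with 7.96 and 8.03 against 7.86 and 7.57.

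At 72 h, 3 of the 27 were higher in CTCF siRNA than in untransfected cells and 1 was lower (1.29% and 1.93% of all, 3.22% together). Of the S phase and G2/M genes, 14 and 8 were higher, and 5 of the 6 unfolded protein response genes were lower, and their part in the 4 genes was not tested. SGK1 had 3.74 and 3.69, against 2.97 and 2.94 (0.76 ± 0.15, SE, n = 2, adjusted p = 0.0213). FKBP5 had 5.44 and 5.39, against 4.82 and 4.86 (0.58 ± 0.13, adjusted p = 0.0302), and CENPN had 8.11 and 7.75, against 7.19 and 7.22 (0.73 ± 0.17, adjusted p = 0.047). SPCS3 had 6.89 and 6.49, against 7.70 and 7.88, and fell by 1.10 (SE 0.16, adjusted p = 0.00569). Over the 27, the CTCF siRNA arrays lay above both untransfected arrays in 10 (21.3% of all) and below both in 4 (22.2% of all), these 4 called genes included. The count was 1 on leaving out either untransfected array, 1 without CTCF siRNA replicate 1 and 0 without CTCF siRNA replicate 2 of 72 h, and the CENPN call held in only 4 of the 14 fits without 1 array and was lost with the replicate block by description code (adjusted p = 0.0627).

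At 144 h, 8 of the 27 were higher in CTCF siRNA than in untransfected cells and 1 was lower, where 6.3% of all were higher and 4.79% lower (11.1% in all). The same arrays differed in 22 of the 25 S phase genes and 23 of the 26 G2/M genes, all of these higher, with mean S phase levels of 7.19 to 7.45 in CTCF siRNA cells and of 6.09 to 6.22 in untransfected cells. All 6 unfolded protein response genes were lower, with mean levels of 7.20 to 7.28 in CTCF siRNA cells and of 8.24 to 8.43 in untransfected cells. CD24 and FOLH1, of 7 measured luminal markers, fell by 1.83 and 0.68. VIM, of 4 fibroblast and stromal markers, fell by 0.78, and CD68, of 5 immune markers, rose by 1.42. KLK3, also a luminal marker, lay above untransfected cells on both arrays (8.05 and 8.58, against 7.86 and 7.57). The part of these markers in the 9 genes was not tested. Control siRNA cells at 144 h also lay below untransfected cells in VIM and above them in CD68 and KLK3, while CD24 and FOLH1 overlapped. SGK1, with 5.32 and 5.36 against 2.97 and 2.94, was 2.38 ± 0.15 higher (SE, n = 2, adjusted p = 1.12e-05). FKBP5, with 5.83 and 6.06 against 4.82 and 4.86, was 1.11 ± 0.13 higher (adjusted p = 0.000371), and CENPN, with 8.09 and 8.50 against 7.19 and 7.22, was 1.10 ± 0.17 higher (adjusted p = 0.00232). For these 3 genes, each call against untransfected cells at 144 h held in all 14 fits without 1 array.

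ELOVL5, with 9.65 and 9.97 against 9.13 and 9.04, was 0.72 ± 0.13 higher (adjusted p = 0.005), and EAF2, with 4.85 and 5.00 against 3.58 and 4.14, was 1.06 ± 0.22 higher (adjusted p = 0.00992). MAF, with 5.01 and 5.00 against 4.36 and 4.13, was 0.76 ± 0.18 higher (adjusted p = 0.0186). GSR was 0.53 ± 0.10 higher, with 9.97 and 9.89 against 9.43 and 9.39 (adjusted p = 0.00802), and PTK2B was 0.84 ± 0.17 higher, with 7.23 and 7.10 against 6.20 and 6.45 (adjusted p = 0.00993). None of these 5 overlapped between the groups. ELOVL5 lost its call without CTCF siRNA replicate 2, EAF2 and GSR without either CTCF siRNA replicate or untransfected replicate 1, PTK2B without CTCF siRNA replicate 1 or untransfected replicate 1, and MAF without either CTCF siRNA replicate or untransfected replicate 2. The count of 9 was 5 without CTCF siRNA replicate 1 and 5 without CTCF siRNA replicate 2 of 144 h.

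HERC3 was the exception among the 6 genes that were higher in CTCF siRNA than in control siRNA cells at 144 h. It had 8.71 and 8.90 in CTCF siRNA cells, against 8.55 and 8.66 in untransfected cells (0.20, 95% confidence interval -0.14 to 0.54, adjusted p = 0.494), and it was the control siRNA cells that differed from untransfected cells. SPCS3, with 6.88 and 6.90 against 7.70 and 7.88, fell by 0.90 (SE 0.16, adjusted p = 0.00428). HPGD, higher at 24 h in both siRNA groups, had 4.42 and 4.58 in CTCF siRNA cells at 144 h, against 4.70 and 4.83 (-0.27 ± 0.13, adjusted p = 0.223).

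Other parts of the androgen pathway were counted for CTCF siRNA against control siRNA at 144 h, from lists chosen with earlier results of these data known. Of 34 measured genes of a further list of 58 androgen-induced genes, 4 were higher and 4 were lower, with a median difference of 0.10. Among all named probe sets, 2.37% were higher and 1.4% lower. PDLIM5, a scaffold of the cytoskeleton (1.29, adjusted p = 0.000942), MAK, a kinase of male germ cells and prostate (1.01, adjusted p = 0.0141), and ZBTB10, a zinc-finger repressor (0.67, adjusted p = 0.00575), were among the higher. HSD17B14, a steroid dehydrogenase, fell by 1.86 (adjusted p = 0.00535), and MERTK, a receptor tyrosine kinase, fell by 0.89 (adjusted p = 0.0251). This list had calls in both directions, and its difference from the 27 was not tested. Of 3 measured androgen-repressed genes, CLU (clusterin) rose by 1.69, with 6.10 and 5.60 in CTCF siRNA cells against 4.20 and 4.13 in control siRNA cells (adjusted p = 0.000256), and FOLH1 fell by 0.61, with 10.05 and 9.96 against 10.67 and 10.56 (adjusted p = 0.0138).

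Of 5 measured genes known to be induced by glucocorticoids, 2 rose at 144 h and none fell. Among all named probe sets, 2.37% rose and 1.4% fell. ZBTB16, a transcriptional repressor, had 6.37 and 6.68 in CTCF siRNA cells, against 5.19 and 5.51 in control siRNA cells (1.18 ± 0.15, SE, n = 2, adjusted p = 0.00231), and ERRFI1, a feedback inhibitor of epidermal growth factor receptor signalling, had 7.98 and 8.21, against 6.89 and 7.05 (1.12 ± 0.15, adjusted p = 0.00241). DUSP1, PER1 and KLF9 did not pass. Among transcription factors that take part in the androgen response, GRHL2, a pioneer-like epithelial factor, was higher (0.61, adjusted p = 0.0161; 1 of 7) and KAT2B, an acetyltransferase coactivator, was lower. KAT2B had 4.87 and 4.99, against 5.86 and 5.93, and fell by 0.96 (adjusted p = 0.00394), the only one of 13 coactivators to pass. It had already fallen by 1.03 at 72 h, with 5.09 and 4.76 against 5.91 and 5.996 (adjusted p = 0.0188). None of 6 corepressors, 2 chaperones, 3 genes of androgen synthesis and inactivation or 3 steroid receptors passed.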

How the data were processed

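LNCaP total RNA was measured on Affymetrix Human Gene 2.0 ST arrays, with 2 arrays in each of 7 groups. The authors made log2 values from the scanner files by RMA (background correction, quantile normalisation and a summary per probe set) in R 3.2.5, and the submitters' processing notes also name limma. These deposited log2 values, in 53617 rows, were used unchanged. Scanner files were not used here, so signal over background could not be judged, and the number of arrays limits the precision (median SE 0.140 for CTCF against control siRNA, 0.145 against untransfected cells). Array medians ran from 3.67 to 3.72, and the 2 arrays of a group correlated at 0.992 or more.

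Gene names came from the platform annotation, which gives exactly 1 gene for 16098 rows. Tests were run with limma 3.58.1 in R 4.3.3 (lmFit and eBayes, two-sided), with Benjamini-Hochberg adjustment over the 16098 named probe sets and a threshold of 0.05. CTCF against control siRNA and the interactions came from a fit of the 12 siRNA arrays (6 groups), and comparisons with untransfected cells from a fit of all 14 arrays (7 groups). The replicate number in the titles entered as a block, as in the study's design matrix. The study describes biological duplicates, and the p-values measure only the spread between such arrays. The fit was tested on simulated data with seeded changes.

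All listed genes with a named probe set are accounted for. Values array by array are given for CTCF, for genes past the threshold between CTCF and control siRNA, for up to 8 genes past the threshold against untransfected cells, and for those nearest the threshold, and up to 4 genes per further list are named. The genes and lists were chosen with earlier results of these data known. Alternatives were no block, a block by the number ending the description code, all rows tested, the dimmest 25% left out, a prior variance with a trend, arrays shifted to a common median, all 14 arrays in the fit, and each array left out in turn. Promoter windows came from RefSeq (GRCh38.p14), and motifs were searched on both strands.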

Additional observations from a re-analysis of the deposited data

Results flagged for a closer look

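For 2 of the 27 genes the difference between CTCF siRNA and control siRNA cells itself differed between 144 and 24 h, by limma's interaction test over all named probe sets. The difference of SGK1 was 2.10 larger on the log2 scale at 144 h than at 24 h (SE 0.22, adjusted p = 0.00365). That of MAF was 1.41 larger (SE 0.25, adjusted p = 0.0351), which did not pass when all rows of the table were tested (adjusted p = 0.145). At 144 h both replicates of CTCF siRNA stood above all other arrays for both genes. The 144 h cells had been transfected a second time, so time and the second transfection cannot be told apart.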

How the results depend on the processing

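No gene called in the main fits changed direction under any alternative. Of the values recomputed for these called genes, 594 still passed and 138 no longer passed. Genes that newly passed under an alternative are not in these 2 counts. With a trend in the prior variance, 10 of the 27 genes passed between CTCF and control siRNA at 144 h (5.34% of all named probe sets, against 6 genes and 3.76% without it), 4 passed in the interaction of 144 with 24 h (1.35% of all, against 2 and 0.795%) and 2 in that of 144 with 72 h (0.342% of all, against 0 and 0.0186%). In that last interaction 1 gene also passed with no replicate block, with the dimmest 25% of named probe sets left out and with all 14 arrays in the fit. When all rows were tested, 2 genes passed between control siRNA and untransfected cells at 24 h, 0 at 144 h, 3 and 1 between CTCF siRNA and untransfected cells at 24 and 72 h, and 1 in the interaction of 144 with 24 h. All rows tested also ended the calls of FKBP5 (adjusted p = 0.0863) and HERC3 (0.0686) between CTCF and control siRNA at 144 h, and of MAF between CTCF siRNA and untransfected cells at 144 h (0.0608), where 8 of 9 genes still passed. By construction, that setting adds rows both to the adjustment and to the estimate of the prior variance, and these parts were not separated. For the other settings the cause was not tested.

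Leaving out each array in turn gave counts of 2 to 6 genes between CTCF and control siRNA at 144 h, of 2 to 7 at 24 h and 0 to 2 at 144 h between control siRNA and untransfected cells, of 2 to 8, 0 to 4 and 5 to 10 between CTCF siRNA and untransfected cells at 24, 72 and 144 h, and of 1 to 2 in the interaction of 144 with 24 h. The other comparisons stayed at 0. Where a group is left with 1 array, that array is assumed to vary like the other groups.

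The replicate numbers were checked for pairing. Over 21 pairs of groups the deviations of same-numbered arrays correlated at -0.09 to 0.23, and 2 of the 21 were over 0.1, those of CTCF with control siRNA at 72 h (0.23) and at 144 h (0.15). Pairing was thus not seen across all groups, and the block was kept because the study's design has it. With the block by description code the CENPN call between CTCF siRNA and untransfected cells at 72 h was lost (adjusted p = 0.0627), and no other call of the 27 genes was. With no replicate block the counts were 6 between CTCF and control siRNA at 144 h, 6 and 3 between control siRNA and untransfected cells at 24 and 144 h, and 9, 4 and 9 between CTCF siRNA and untransfected cells at 24, 72 and 144 h. Shifting the arrays to a common median moved them by -0.02 to 0.03.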
